A study of Mus musculus with 5 samples.

Results

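The 10 marker genes of tubular injury and repair, Havcr1, Lcn2, Vcam1, Krt20, Sox9, Spp1, Clu, Krt8, Krt18 and Cd44, were followed through the cell types of the kidney. They were taken by symbol, and all 10 were found once each among the 27998 genes of every library. The libraries were droplet single-cell RNA libraries from kidneys of C57BL/6j mice in which a lupus-like disease had been induced with pristane, a hydrocarbon oil injected into the abdomen. All 5 mice carried the pristane disease, and no mouse without it was analysed here. The saline group (Saline 1 and Saline 2) was given saline. The FMT group (FMT 1, FMT 2 and FMT 3) was given a fecal microbiota transplant from MRL/MpJ mice. Age, sex and the times of pristane and transplant are not given in the labels, and nothing in them says whether mice shared a cage or a preparation day. Titles of the saline samples begin with other letters than those of the FMT samples, so whatever those letters stand for cannot be told apart from the treatment.

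As background, damaged tubule cells lose part of their transport programme, flatten and take up a repair state before the tubule regains its lining. Havcr1 encodes KIM-1, a receptor that proximal cells use to take up dying neighbours, and Lcn2 encodes NGAL, an iron-binding protein made by injured distal segments and stored in neutrophil granules. Sox9 is a transcription factor of repairing tubule cells, Vcam1 an adhesion molecule of cells that fail to complete repair, and Krt8, Krt18 and Krt20 are intermediate filament keratins of simple epithelia and urothelium.

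Cells were sorted in the data by gates, which are sums of UMIs (unique molecular identifiers, each standing for 1 captured transcript molecule) of a few defining genes. A cell entered the proximal gate by Slc34a1 and Miox, the distal gate by Slc12a3, the thick limb gate by Slc12a1 or the urothelium gate by Upk1b and Psca, whichever sum was largest and at least 3. It also needed 0 UMIs of the leukocyte gene Ptprc and fewer than 20 of S100a8. A tubule cell that had lost its defining genes could not enter its gate. The neutrophil gate needed at least 20 UMIs of S100a8. Of 21708 cells used, 11794 were in the proximal gate (1442 to 3610 per mouse), 792 in the distal gate (253 at most), 90 in the thick limb gate (5 to 29), 133 in the urothelium gate (13 to 42) and 402 in the neutrophil gate (34 to 125). B cells, T cells, phagocytes, endothelial cells, intercalated cells and principal cells were gated likewise and serve for comparison of levels. The libraries held 15333445 to 45309178 UMIs each, the median cell held 3262.5 to 4928 UMIs, and pairs of libraries shared 2 to 7 barcodes.

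The labels call the cells renal tubular epithelial cells, and their protocol also names B cells. In the data 2213 cells were gated as B cells and 2591 as T cells. The gates were checked against markers that had not defined them. All 15 proximal markers were highest in the proximal gate, although Slc7a13, a gene of the last proximal segment, reached no more than 0.345 CPM (UMIs of a gene per 1000000 UMIs of a gate) in any mouse. In the distal gate Pvalb stood at 563 to 882 CPM and Calb1 at 528 to 1663 CPM. The thick limb gene Umod was also present there at 1893 to 5109 CPM, against 5964 to 19260 CPM in the thick limb gate, whereas the claudin Cldn16 reached 0.5 CPM at most. In the thick limb gate Cldn16 stood at 261 to 721 CPM and Pvalb at 0. The checks were less clean there and in the distal gate: 5 of 8 thick limb markers (not Ptger3, Kcnj1 and Wfdc15b) and 6 of 8 distal markers were highest in their own gate, against 10 of 11 in urothelium and 9 of 10 in neutrophils. Upk2, a uroplakin of the urothelial surface, stood at 686 to 1400 CPM in the urothelium gate. The thick limb gate held only 5 cells in Saline 1 and in FMT 2, and the urothelium gate 13 in Saline 2 and 17 in FMT 3, and mice with under 20 cells of a gate did not enter its tests.

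The members fell into separate compartments. Neutrophils held 96.2% of all Lcn2 UMIs, urothelium held 89.7% of Krt20 and 81.5% of Krt18, and proximal cells held 83.5% of Spp1 and 54.9% of Krt8. The distal gate held 74.1% of Sox9, while Clu was divided between the distal gate (46.3%) and the urothelium (41.5%). Cd44 lay mostly outside the tubule, with 17.4% of its UMIs in neutrophils, 17.5% in phagocytes, 19.3% in T cells and 34.2% in cells that entered no gate.

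**Figure D1:**
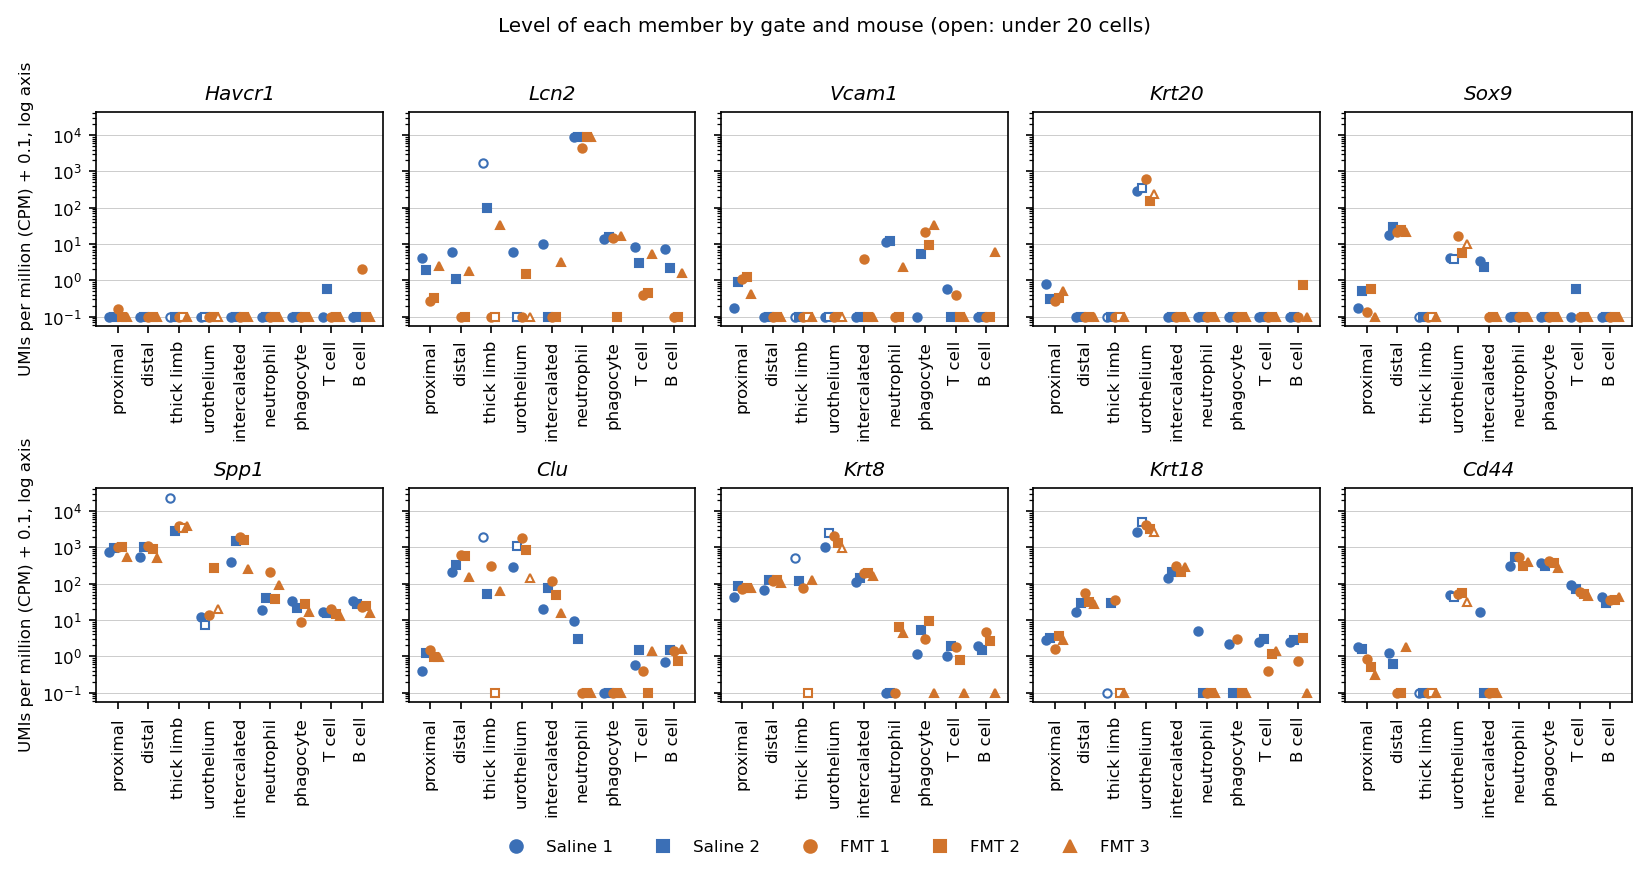
Level of each member in CPM (with 0.1 added, log axis) in 9 gates. Each point is 1 mouse, blue for saline and orange for FMT, and open points are mice with under 20 cells in that gate. Lcn2 is highest in neutrophils at 4276 to 8939 CPM, and Sox9 is highest in the distal gate at 17.4 to 28.5 CPM. Krt20 lies below 1 CPM in the gates drawn other than urothelium.

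Havcr1, the standard marker of acute proximal damage, was almost absent. Saline 1, Saline 2, FMT 2 and FMT 3 had 0 Havcr1 UMIs in their proximal cells, which allows shares of cells with a UMI of up to 0.133%, 0.208%, 0.106% and 0.183%. FMT 1 had 2 UMIs in 2 of 3610 proximal cells. The whole data set held 15 Havcr1 UMIs, of which 9 were in cells without a gate and 3 in B cells of FMT 1, so the few proximal UMIs were no more frequent than in B cells of that mouse, in which 0.388% of cells had one against 0.0554% of proximal cells. Median depth was 6370 UMIs per proximal cell and 2646 per B cell there. A difference between saline and FMT was not detectable at this depth.

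Lcn2 was a neutrophil transcript in these kidneys. Its level in the neutrophil gate was 8880 CPM in Saline 1, 8639 in Saline 2, 4276 in FMT 1, 8939 in FMT 2 and 8840 in FMT 3. FMT 1, with 34 neutrophils the smallest sample, was the lowest, and the other 4 mice lay close together. The FMT level was not called different from saline (log2 fold change -0.35, SE 0.40, edgeR adjusted p = 0.721, where a call needs an adjusted p under 0.05), and was -0.0276 without FMT 1.

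Proximal cells held 54, 18, 5, 4 and 23 Lcn2 UMIs in the order Saline 1, Saline 2, FMT 1, FMT 2 and FMT 3, which is 4.12, 1.79, 0.165, 0.230 and 2.40 CPM. No proximal cell had more than 2. FMT 1 and FMT 2 were lowest, but FMT 3 lay between the 2 saline mice, so the groups overlapped. The proximal log2 fold change was -2.10 (SE 0.92, edgeR adjusted p = 0.461), which is no call, and moved to -3.94 without FMT 3 and -1.26 without Saline 1.

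Free RNA released by other cells reaches every droplet, and the neutrophil genes were used to trace it. S100a8, an abundant neutrophil gene, had 381, 113, 42, 48 and 216 UMIs in the proximal gate, with the 2 FMT mice that were low in Lcn2 also low in S100a8. At the Lcn2 to S100a8 ratio of each mouse's own neutrophils these S100a8 UMIs would bring 25.4, 8.84, 2.30, 3.91 and 14.5 Lcn2 UMIs. The counted number was above that in all 5 mice, and the sum was 104 counted against 54.9 expected. If S100a9 served as the neutrophil gene, 83.6 were expected, and the counted number was above expectation in 4 of 5 mice. By S100a8, B cells had 12, 3, 0, 0 and 1 Lcn2 UMIs against 7.34, 2.03, 0.383, 0.732 and 1.34 expected, above in the 2 saline mice only. T cells had 18, 6, 1, 1 and 4 against 4.80, 2.19, 0.383, 1.06 and 1.67. By S100a9 the expected sums were 19.5 in B cells and 15.3 in T cells, against 16 and 30 counted.

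After every cell had been thinned to 1000 UMIs, Lcn2 was expected in 0.551%, 0.297%, 0.0133%, 0.0401% and 0.363% of proximal cells. The same thinning gave 0.691%, 0.226%, 0%, 0% and 0.312% of B cells, a cell type that should lack the gene. Without thinning the shares were 2.39%, 1.18%, 0.139%, 0.141% and 1.40% of proximal cells and 1.92%, 0.773%, 0%, 0% and 0.515% of B cells, at median depths of 4248 to 6370 and 2342 to 3362.5 UMIs. In Saline 1 the thinned proximal share was below that of B cells, although Lcn2 there was in 2.48% of proximal cells without S100a8 and S100a9 and in 2.19% of those with either. In the other 4 mice the thinned share was above that of B cells, of which FMT 1 and FMT 2 had no UMI in 515 and 491 B cells, which allows shares of up to 0.583% and 0.611%. The part of free RNA in proximal Lcn2 was not tested further.

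**Figure D2:**
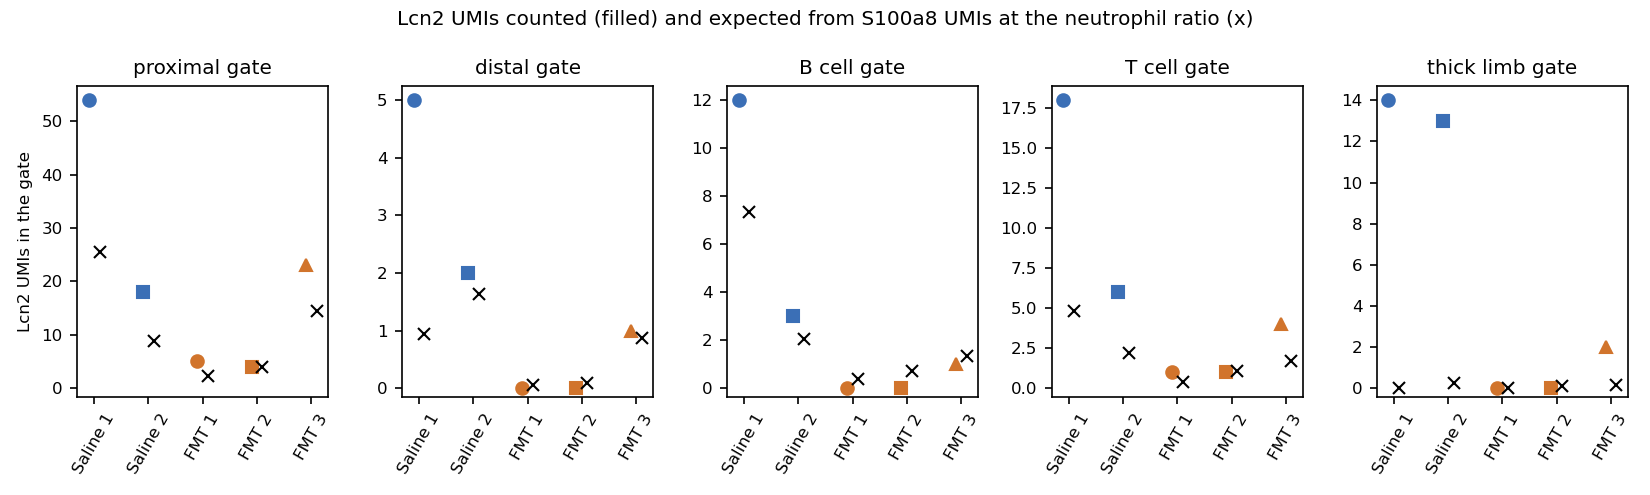
Lcn2 UMIs counted in a gate (filled symbols, 1 per mouse) and the number expected from the S100a8 UMIs of the same cells at the neutrophil ratio of that mouse (crosses), for 5 gates with a linear axis of their own. Counted and expected numbers run in parallel over mice in proximal cells, with 54 against 25.4 in Saline 1, while in the thick limb gate 14 and 13 UMIs were counted in Saline 1 and Saline 2 where under 1 was expected.

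Lcn2 in the thick limb gate did not follow the neutrophil genes. Saline 1 had 14 UMIs, all in 1 of its 5 cells, and that cell had 0 UMIs of S100a8, 33 of Umod, 179 of Spp1 and 16 of Clu. Saline 2 had 13 UMIs in 26.9% of its 26 cells, with 3 S100a8 UMIs in the gate and 12 of the 13 Lcn2 UMIs in cells without any. FMT 1 and FMT 2 had 0 Lcn2 UMIs in 29 and 5 cells, which allows shares of up to 10.3% and 60%, and FMT 3 had 2 UMIs in 1 of 25 cells. By counted UMIs both saline mice were above the FMT mice, but the value of Saline 1 rests on 1 cell. The limit of 60% in FMT 2 lies above the 26.9% of Saline 2, so FMT 2 cannot be placed below saline. How many genes of this gate separate likewise was not computed. The test had 1 saline and 2 FMT mice with enough cells, and the log2 fold change of -2.92 (SE 2.19) was not called. Single cells elsewhere were also high in Lcn2. A principal cell of Saline 1, with 159 UMIs of the water channel Aqp2 and 0 of S100a8, had 43 Lcn2 UMIs, and a principal cell of FMT 2 had 9.

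Vcam1 was found in 38 of 11794 proximal cells, or 0.322%, with 1, 8, 29, 19 and 3 UMIs in Saline 1, Saline 2, FMT 1, FMT 2 and FMT 3. In CPM this was 0.0763, 0.797, 0.960, 1.09 and 0.313. FMT 3 lay between the saline mice, and the log2 fold change of 1.09 was not called (SE 0.77, edgeR adjusted p = 0.631). It was 0.15 without Saline 1 and 3.32 without Saline 2. Of the 38 cells, 37 had Spp1, 17 had Krt8, 1 had Lcn2 and 1 had Havcr1. Spp1 was thus in 97.4% of them and in 83.1% of the rest, and Krt8 in 44.7% and 30.3%. The cells with Vcam1 were also deeper, with a median of 8854 UMIs against 5130.5. The part of depth in those differences was not tested. The highest one, in FMT 2, had 6 Vcam1 UMIs, 9 of Spp1 and 7 of the complement gene C3. In phagocytes Vcam1 was 0 and 5.31 CPM in saline and 20.7, 9.23 and 33.1 CPM in FMT, from 14 UMIs in all, and 12.0% of the 8453 genes with at least 10 UMIs in that gate were likewise higher without overlap. In cells that entered no gate Vcam1 and Clu were also higher without overlap, as were 11.8% of 13272 genes. Cd44 and Havcr1 were lower in FMT without overlap in those cells. In endothelial cells Vcam1 reached 88.2 CPM in the 12 endothelial cells of FMT 2, all 3 UMIs of which were in 1 cell.

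Sox9 was a gene of the distal gate, where 7.81% of cells had it in Saline 1, 14.2% in Saline 2, 10.3% in FMT 1, 10.3% in FMT 2 and 10.9% in FMT 3. Levels were 17.4, 28.5, 20.8, 24.2 and 21.7 CPM, and the 3 FMT mice lay between the 2 saline mice. Its log2 fold change there was -0.11 (SE 0.31, edgeR adjusted p = 1.00). Urothelium came next at 3.92, 3.64, 16.1, 5.59 and 10.1 CPM, below every mouse of the distal gate. In proximal cells 6 of 11794 had a Sox9 UMI, and 8 of the 14 UMIs were in 1 cell of FMT 2. The thick limb gate had 0 Sox9 UMIs in all 5 mice, which allows shares of up to 10.3% in FMT 1 and 60% in the mice with 5 cells.

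Krt20, which marks the umbrella cells that face the urine and also appears in injured tubules, kept mostly to the urothelium. Its levels there were 296, 338, 602, 150 and 233 CPM, with FMT mice both highest and lowest. The distal, thick limb, intercalated and neutrophil gates had 0 Krt20 UMIs in every mouse. In proximal cells it was in 18 of 11794, at 0.687 CPM or less. Cells that entered no gate had 22, 1, 11, 10 and 0 Krt20 UMIs, at 7.98 CPM or less, and 1 principal cell of Saline 1 had 2. The urothelial log2 fold change was 0.14 (SE 0.50, edgeR adjusted p = 0.999).

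Spp1, the secreted phosphoprotein osteopontin that binds calcium crystals and integrins, was the most widespread member in the tubule. It was in 80.8%, 82.3%, 90.1%, 83.4% and 71.2% of proximal cells of Saline 1, Saline 2, FMT 1, FMT 2 and FMT 3, against 4.12% to 9.54% of B cells. Its proximal level was 749, 948, 996, 1057 and 544 CPM, so FMT mice were both highest and lowest. The log2 fold change of 0.04 was not called (SE 0.26, edgeR adjusted p = 0.967). The 10% of proximal cells that were highest in each mouse held 34.7% to 41.6% of the Spp1 UMIs. Neutrophils had 19.0, 41.3, 205, 37.3 and 94.7 CPM, where 18 of the 20 UMIs of FMT 1 were in 1 cell, and the log2 fold change of 1.75 was not called (SE 0.56, edgeR adjusted p = 0.193). Thick limb cells were higher than proximal cells, at 2783 CPM in Saline 2, 4008 in FMT 1 and 3952 in FMT 3, all above every proximal and distal value. Saline 1 stood at 23187 CPM there, but without its highest cell the level was 1931.

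In urothelium Spp1 was the 1 member called between the groups (log2 fold change 3.63, SE 0.63, edgeR adjusted p = 6.04e-06). Levels were 11.8 CPM in Saline 1, 7.28 in Saline 2, 13.4 in FMT 1, 277 in FMT 2 and 20.2 in FMT 3, and 182 of the 198 UMIs of FMT 2 came from 1 cell with 23901 UMIs, 33 of them Psca. Without the highest cell of each mouse, a step added after the values were seen, FMT 2 stood at 23.1 CPM, Saline 1 at 10.3 and FMT 1 at 8.14, so that the mice of the test overlapped. Only Saline 1, FMT 1 and FMT 2 entered the test, DESeq2 gave an adjusted p of 1.00, and no member was called once mice with 5 to 19 cells were let in.

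Clu encodes clusterin, a secreted chaperone that rises in damaged epithelium. It was found in 51.6%, 70.4%, 64.9%, 59.5% and 43.6% of distal cells, at 206, 324, 624, 583 and 150 CPM. The 2 highest mice were FMT 1 and FMT 2 and the lowest was FMT 3, so the groups overlapped, and the log2 fold change of 0.79 was not called (SE 0.34, edgeR adjusted p = 1.00). Without FMT 3 it was 1.19 with an adjusted p of 0.0226, and without FMT 1 it was 0.48. In urothelium the levels were 290, 1095, 1784, 859 and 147 CPM, and the fit of Saline 1 against FMT 1 and FMT 2 gave a log2 fold change of 2.03 that was not called (SE 0.65, edgeR adjusted p = 0.438). Saline 2, which had too few cells for the test, stood above FMT 2. In the thick limb gate Clu was 1984, 52.2, 313, 0 and 64.5 CPM, with all 16 UMIs of Saline 1 in 1 cell and 22 of those of FMT 1 in another. The fit of Saline 2 against FMT 1 and FMT 3 gave a log2 fold change of 1.95 that was not called (SE 0.59, edgeR adjusted p = 0.205), and with the 2 mice of 5 cells let in it was -1.10. Proximal cells had 4, 11, 42, 15 and 8 Clu UMIs, and 0.177% to 0.803% of them had one, against 0.160% to 0.515% of the shallower B cells. Thinned to 1000 UMIs, the shares were 0.0355% to 0.168% of proximal cells and 0.0160% to 0.150% of B cells.

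In several gates Spp1 and Clu had an order of mice that did not follow the treatment. For Spp1 the 2 lowest mice were Saline 1 and FMT 3 in the proximal, distal and intercalated gates, and for Clu in these and in urothelium. The same mice were lowest for Krt8 and Krt18 in the distal and urothelium gates, though not in the proximal and intercalated gates. For Spp1 in urothelium the 2 saline mice were lowest, and in the thick limb gate Saline 1 was the highest mouse for Spp1 and for Clu. In the gates where Saline 1 and FMT 3 were lowest, the gap to the next mouse was 1.27-fold to 3.87-fold for Spp1 and 1.03-fold to 2.96-fold for Clu. In intercalated cells Spp1 stood at 389 and 250 CPM in Saline 1 and FMT 3 and at 1506, 1958 and 1575 CPM in Saline 2, FMT 1 and FMT 2. In B cells the 2 lowest mice for Spp1 were FMT 1 and FMT 3, and in T cells FMT 2 and FMT 3. Saline 1 and FMT 3 were also the mice with the highest shares of neutrophils, 2.49% and 4.33% of cells against 2.32%, 0.567% and 1.02% in the others. Their median depth was also lowest in proximal cells, at 4381 and 4248 UMIs against 4685 to 6370, and in intercalated cells, at 1253.5 and 1163 against 1460 to 2094. In distal cells it was 6319.5 and 5270 UMIs, against 6718, 4623 and 4859.5 in Saline 2, FMT 1 and FMT 2. In urothelium it was 13840 and 10753, against 19921, 10557 and 13051, so in these gates they were not the 2 shallowest mice. The part of depth or of neutrophils in this order was not tested.

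**Figure D3:**
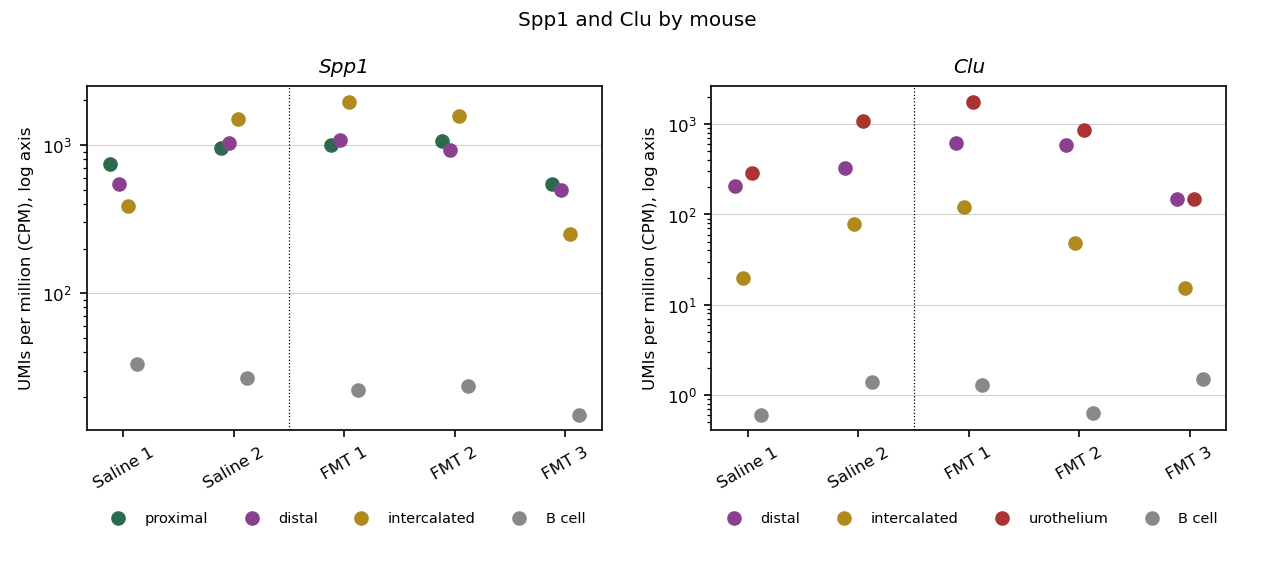
Spp1 and Clu levels in CPM (log axis) by mouse, 1 colour per gate, with saline mice left and FMT mice right of the dotted line. In the epithelial gates drawn Saline 1 and FMT 3 lie lowest, as with Spp1 in intercalated cells at 389 and 250 CPM against 1506 to 1958 CPM in the other mice, while B cells, in grey, lie far below.

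Krt8 and Krt18 form 1 filament as obligate partners, and their genes are neighbours on chromosome 15 of GRCm38, 23697 bases apart and pointing away from each other. In GENCODE M21, Krt8 (ENSMUSG00000049382) spans bases 101996698 to 102004482 on the minus strand and Krt18 (ENSMUSG00000023043) bases 102028180 to 102032027 on the plus strand. The promoters of the pair are shown with that of Krt20 (ENSMUSG00000035775, chromosome 11, minus strand), the urothelial keratin of the set. Whether they bear on how the pair's UMIs were shared out between cell types was not tested. The RefSeq starts used for the windows of Krt8 and Krt18 differ from the GENCODE starts given above. Each window runs 5′ to 3′ from 250 bases before to 50 bases after the RefSeq start (GRCm38.p6), at chr15:102004293-102004592 for Krt8, chr15:102027966-102028265 for Krt18 and chr11:99438104-99438403 for Krt20, and capitals mark TATAAA, the core promoter motif.
Krt8: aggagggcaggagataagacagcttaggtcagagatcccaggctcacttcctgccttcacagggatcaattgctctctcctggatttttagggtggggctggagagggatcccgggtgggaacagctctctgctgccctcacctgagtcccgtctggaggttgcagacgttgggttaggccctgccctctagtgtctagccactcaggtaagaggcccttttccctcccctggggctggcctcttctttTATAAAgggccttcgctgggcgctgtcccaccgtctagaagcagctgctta
Krt18: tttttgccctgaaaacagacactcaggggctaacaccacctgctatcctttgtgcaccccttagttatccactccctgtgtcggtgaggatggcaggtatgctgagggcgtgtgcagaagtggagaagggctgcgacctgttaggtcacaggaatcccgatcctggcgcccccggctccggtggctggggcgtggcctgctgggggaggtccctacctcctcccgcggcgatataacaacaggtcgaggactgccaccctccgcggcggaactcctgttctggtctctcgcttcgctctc
Krt20: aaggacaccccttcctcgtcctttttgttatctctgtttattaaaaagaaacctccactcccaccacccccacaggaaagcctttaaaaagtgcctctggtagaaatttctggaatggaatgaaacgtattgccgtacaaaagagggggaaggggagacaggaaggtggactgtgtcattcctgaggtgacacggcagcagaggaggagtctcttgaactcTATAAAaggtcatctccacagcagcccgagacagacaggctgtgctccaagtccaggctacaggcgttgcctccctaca
TATAAA stands in the windows of Krt8, beginning 1 base before the RefSeq start, and of Krt20, beginning 29 bases before it, and has no match on either strand of the Krt18 window. TTTATA, the same motif read on the opposite strand, overlaps the Krt8 match. Of all 32851 mouse windows of 300 bases in the table, 13.6% hold TATAAA on either strand. RefSeq windows were matched for 7 of the 10 members; Vcam1, Sox9 and Clu had none.

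Krt8 was detected in 19.0%, 33.5%, 37.4%, 29.5% and 29.3% of proximal cells of Saline 1, Saline 2, FMT 1, FMT 2 and FMT 3. Krt18 was detected in 1.55%, 2.01%, 1.19%, 1.76% and 1.28% of the same cells. B cells had Krt8 in 1.36% of cells or fewer and Krt18 in 1.02% or fewer, and T cells had Krt18 in 1.38% or fewer. Thinned to 1000 UMIs, Krt8 was expected in 4.35% to 7.83% of proximal cells and in 0.394% of B cells or fewer. Krt18 was expected in 0.226% to 0.494% of proximal cells, 0.321% of B cells or fewer and 0.347% of T cells or fewer.

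Capture can differ between 2 transcripts, so their ratio is compared here only between cell types. Krt8 made up at least 93.9% of the pair's UMIs in proximal cells and 68.9% to 81.3% in distal cells. Intercalated cells had 36.4% to 48.2% and urothelium 26.9% to 33.1%. The 5 mice of each of these 4 gates did not overlap with those of the next gate in that order. The groups overlapped in the proximal, intercalated and urothelium gates. In the distal gate all 3 FMT mice, at 68.9%, 79.6% and 78.2%, were below the saline mice at 80.8% and 81.3%. Their exact 95% intervals overlapped except for FMT 1 (61.6% to 75.5%) and Saline 2 (76.5% to 85.5%), and whether the groups differ was not tested.

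**Figure D4:**
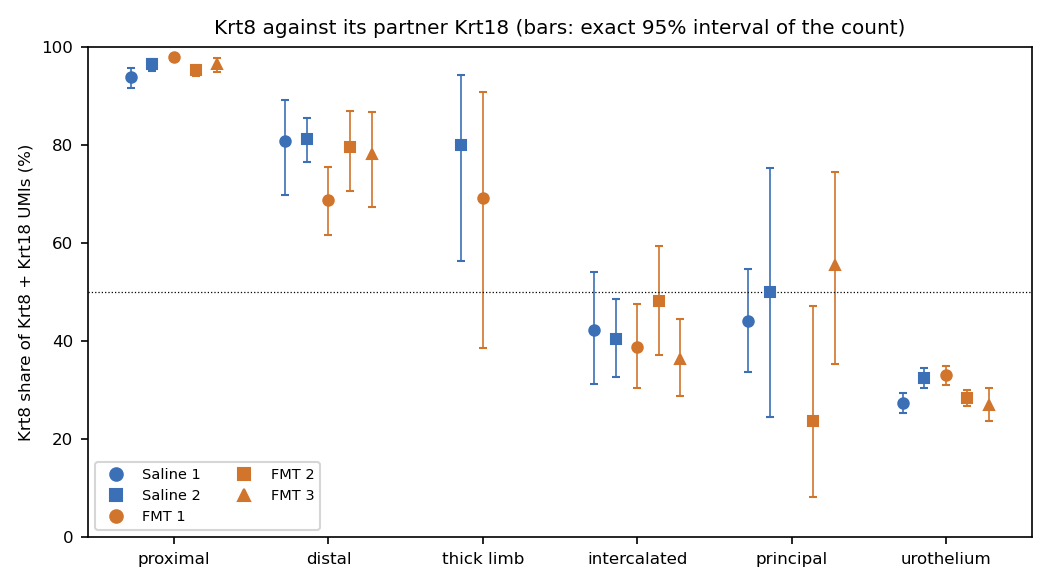
Krt8 as a percentage of all Krt8 and Krt18 UMIs, by gate and mouse. Symbols are mice and bars the exact 95% binomial interval of the count, which covers counting error only. Proximal cells lie at 93.9% or more and urothelium at 33.1% or less in every mouse.

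The proximal level of Krt8 was 42.2, 84.1, 73.0, 74.7 and 74.7 CPM, with Saline 1 lowest and Saline 2 highest. The log2 fold change of 0.27 was not called (SE 0.23, edgeR adjusted p = 0.689), and for Krt18 it was -0.18 (SE 0.37, adjusted p = 0.879). In distal cells Krt18 was 16.2, 29.0, 53.8, 31.8 and 28.4 CPM, and its log2 fold change of 0.74 was not called (SE 0.32, edgeR adjusted p = 1.00), with 0.35 without FMT 1 and 1.26 without Saline 2. In intercalated cells Krt8 was 108 and 143 CPM in saline and 195, 197 and 168 CPM in FMT, and Krt18 was 147 and 209 against 308, 212 and 293 CPM. The groups did not overlap for either keratin there, as for 11.2% of the 8675 genes with at least 10 UMIs in that gate. An exact 2-sided permutation test gave p = 0.1 for Krt8, below which groups of these sizes cannot go, and p = 0.2 for Krt18.

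Cd44, a hyaluronan receptor of leukocytes that repairing tubules can also show, was highest in neutrophils and phagocytes here. Levels were 313, 546, 544, 311 and 396 CPM in neutrophils and 374, 313, 411, 365 and 265 CPM in phagocytes. In urothelium they were 49.0, 43.7, 51.0, 54.5 and 30.4 CPM, beside 29.5 to 44.1 CPM in B cells. The thick limb gate had 0 Cd44 UMIs in all mice. Proximal cells had 23, 15, 23, 7 and 2 UMIs, which is 1.75, 1.49, 0.761, 0.403 and 0.209 CPM. All 3 FMT mice were below both saline mice, as were 15.9% of the 11936 genes tested in that gate. The log2 fold change of -1.62 was not called (SE 0.49, edgeR adjusted p = 0.344). The summed level of 8 leukocyte and red cell genes (S100a8, S100a9, Retnlg, Cd79a, Cd74, Lyz2, C1qa and Hbb-bs) in proximal cells was also lower in the FMT mice. It stood at 1036 and 1022 CPM in saline and 197, 472 and 823 CPM in FMT. On group means the largest part of this sum was the red cell gene Hbb-bs, at 759 CPM in saline and 335 CPM in FMT. Singly, only Hbb-bs and Lyz2 were lower in FMT without overlap, while S100a8, S100a9, Retnlg, Cd79a, Cd74 and C1qa overlapped between the groups. C1qa was at 0 in Saline 1 and FMT 3. In T cells Cd44 was 90.5 and 71.5 CPM in saline and 58.7, 52.3 and 46.9 CPM in FMT, without overlap, as for 13.4% of 11489 genes (exact permutation p = 0.1). The part of free RNA in the proximal Cd44 value was not tested.

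Between the groups, 7 members passed the count filter in proximal cells, 5 in distal cells, 4 in the thick limb gate, 6 in urothelium and 3 in neutrophils. No member was called in the proximal gate, where 0.067% of 11936 genes were called (8 genes, all lower in FMT), in the distal gate (0.194% of 8262), in the thick limb gate (0.43% of 2560) or in neutrophils (0.51% of 3527). Without adjustment, 2, 2, 1 and 1 members had an edgeR p under 0.05 in these gates, beside 10.7%, 4.26%, 5.04% and 14.8% of all genes tested, and DESeq2 called none of the members it gave an adjusted p. In urothelium 1 of 6 was called, against 0.251% of 6769 genes, and 2 had an edgeR p under 0.05, beside 2.59% of all genes. The median log2 fold change of the members tested was 0.04 in proximal cells and 0.23 in distal cells, beside -0.01 and 0.01 over all genes tested. Of the 7 members tested in proximal cells 0 were higher and 1 was lower without overlap of the groups, beside 12.9% and 15.9% of all genes tested. In distal cells 0 of 5 did not overlap, beside 7.55% higher and 9.68% lower, and in neutrophils 0 of 3, beside 18.0% and 14.7%. Havcr1 passed the filter in no gate.

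**Figure D5:**
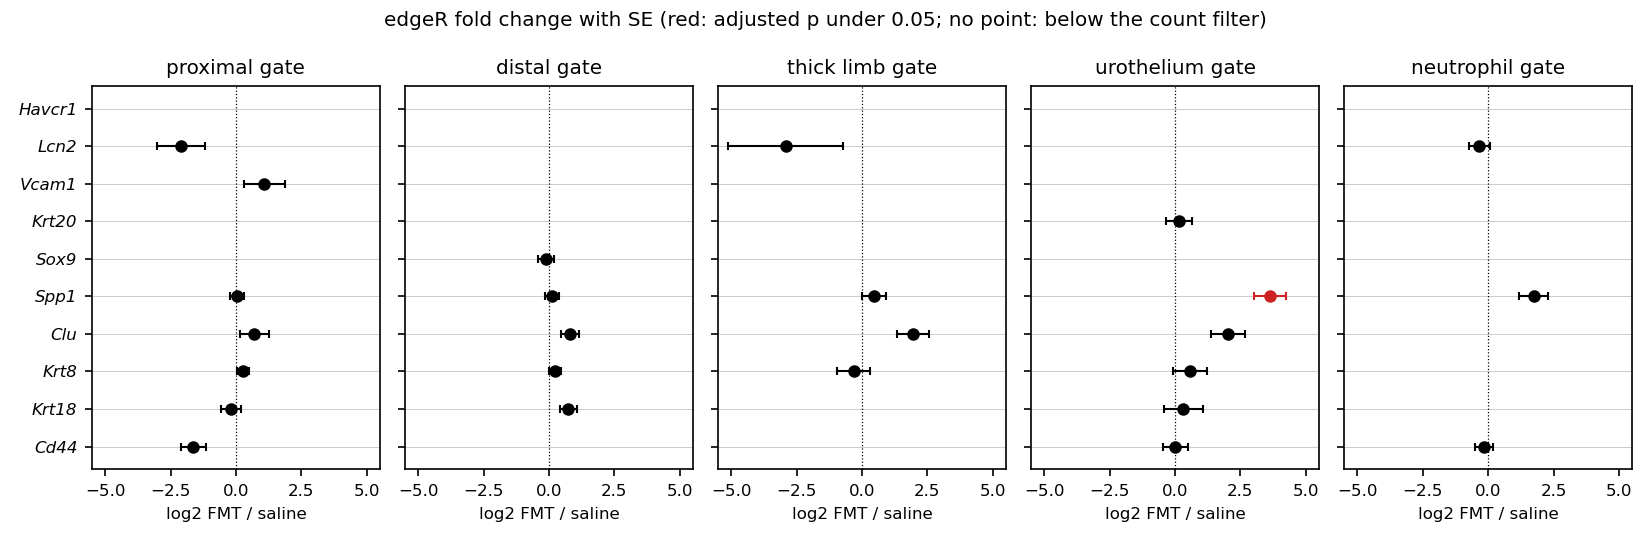
log2 fold change of FMT over saline with its standard error for the members that passed the count filter in each of 5 gates (edgeR). Red marks an adjusted p under 0.05, which Spp1 reached in urothelium at 3.63, and the other 24 points are black.

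A further 56 genes known from tubular injury and repair were read in the same fits. In proximal cells 44 were tested, 15 were higher and 29 lower in FMT by sign, and 0 were called (7 with an edgeR p under 0.05, beside 10.7% of all genes tested). Among those at a mean of at least 30 CPM, the 5 with the smallest p were Nfkbia, the inhibitor that NF-kB itself induces, Tmsb10, Plin2, S100a10 and Pax8. Nfkbia was 65.2 and 60.4 CPM in saline and 34.1, 37.7 and 43.3 CPM in FMT (log2 fold change -0.70, SE 0.15, edgeR adjusted p = 0.250). Plin2, which coats lipid droplets, was 177 and 222 CPM in saline and 238, 257 and 269 CPM in FMT (log2 fold change 0.38, SE 0.16, edgeR adjusted p = 0.449). Log2 fold changes of the other 3 were -0.32 for Tmsb10, 0.43 for S100a10 and -0.27 for Pax8.

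In distal cells 24 of the 56 were tested and 0 called (5 with an edgeR p under 0.05, beside 4.26% of all genes). Ctgf, a matricellular growth factor, was 22.5 CPM or less in saline and 82.1, 28.8 and 28.4 CPM in FMT, with FMT 1 far above the rest (log2 fold change 1.17, SE 0.37, edgeR adjusted p = 0.570). The cell cycle inhibitor Cdkn1a was 202 and 108 CPM in saline and 64.2, 139 and 80.1 CPM in FMT, and the groups overlapped (log2 fold change -0.70, edgeR adjusted p = 1.00). Egr1, Gdf15 and Tnfrsf12a had log2 fold changes of 1.10, -0.79 and -0.52. In urothelium 26 were tested and 0 called (1 with an edgeR p under 0.05, beside 2.59% of all genes). Among those with the smallest p there were Egr1, Itgb6, Cdkn1a and Anxa3, with log2 fold changes of -0.74, 0.75, -0.56 and 0.54.

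In the thick limb gate 11 were tested, 4 had an edgeR p under 0.05 (5.04% of all genes) and 1 was called. This was Cxcl10, a chemokine induced by interferon, which had 16 UMIs in Saline 2, 251 in FMT 1 and 0 in FMT 3 (log2 fold change 3.22, SE 0.57, edgeR adjusted p = 4.17e-05). FMT 1 was the only high mouse of the 3 tested, and DESeq2 gave an adjusted p of 1.00. In neutrophils 27 were tested, 8 had an edgeR p under 0.05 (14.8% of all genes) and 1 was called, Top2a, a topoisomerase of dividing cells, with 45 and 18 UMIs in the saline mice and 0, 0 and 1 in the FMT mice (log2 fold change -5.24, SE 0.73, edgeR adjusted p = 0.0115). Without Saline 1 its adjusted p was 0.253, and it was no longer called without FMT 1 either.

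Genes of the mature tubule, whose loss is part of the injury response, were not called in their own gates. Each gate asked for at least 3 UMIs of mature genes of its segment, so cells that had lost those were left out. The values below therefore cover only cells that kept them, and cannot show such a loss in other cells. In proximal cells 14 markers were tested, 5 higher and 9 lower in FMT by sign, with a median log2 fold change of -0.11. In distal cells 8 were tested, 5 higher and 3 lower, with a median of 0.15, and in the thick limb gate 8 were tested, 2 higher and 6 lower, with a median of -0.55. The edgeR p was under 0.05 for 0, 1 and 3 of them, beside 10.7%, 4.26% and 5.04% of all genes tested in these gates.

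Over 7 gates with enough cells in every group, the genes whose mean level followed a member most closely were listed by Pearson r of log2(CPM + 1), as a description over cell types that share libraries. For Lcn2 these were Hcar2, Il1r2 and Cebpe (r of 0.997, 0.996 and 0.996). For Sox9 they were Ppp1r1a, Cwh43 and Figf (0.998, 0.997 and 0.997), for Clu Gcgr, Tmem72 and Dbn1 (0.997, 0.997 and 0.996) and for Spp1 C130074G19Rik, Wwc1 and Vdr (0.998, 0.996 and 0.995). For Krt8 they were Hagh, Cox7a2 and Acadl (0.999, 0.997 and 0.996), for Krt18 Oxgr1, Tmem117 and BC031181 (0.995, 0.991 and 0.990), for Cd44 Relt, Gm21975 and Stx11 (0.998, 0.993 and 0.993) and for Vcam1 Mdm1, Adgre1 and F13a1 (0.983, 0.982 and 0.981). Urothelium was not among the 7 gates. Havcr1 and Krt20 had a highest mean of 0.390 and 0.340 CPM in these gates, and the genes nearest to them, Pxdc1, B3gnt5 and Blk and Slc22a2, Cldn10 and Upb1, followed values near 0.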

How the data were processed

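Per the labels, single-cell RNA was collected from the kidneys of 5 mice with 10x Genomics, although the extraction protocol there is that of bulk RNA. The deposited matrices hold UMI counts per gene and barcode, which the authors made with Cell Ranger on mm10. The submitters' processing notes give version 2.1.1 and the file headers 4.0.0. Barcodes were kept from 200 detected genes upwards when under 50% of their UMIs were mitochondrial, and the highest Scrublet scores were removed at 0.8% per 1000 cells, 883 of 22591 cells. UMIs were summed per mouse and gate and tested with edgeR 4.0.16 in R 4.3.3 (quasi-likelihood, TMM, low count filter, Benjamini-Hochberg over all genes of a gate, threshold 0.05) for mice with at least 20 cells. The fit was tested on simulated data of the proximal gate with 11936 genes. It recovered 69 of 100 genes changed 2-fold and 91 of 100 changed 4-fold, with 14 false calls. The counts were drawn independently for each gene and mouse, and the changed genes were picked at random over all levels. These rates therefore do not tell how often a member with few UMIs would be recovered. Shares were computed with scipy 1.17.1, also after thinning every cell to 1000 UMIs (shallower cells left out), and compared with 2-sided exact permutation tests. Intervals are exact (95%), and intervals and limits for a count of 0 (3 counts) cover counting error only. Each p-value reflects only how far these mice vary.

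The members and lists were chosen with earlier results of these data known. Named genes were the 10 members, the called genes of the other list (otherwise the 5 with the smallest p and at least 30 CPM) and the 3 genes most alike each member with at least 50 CPM in 1 gate, except that 1 gene of the other list is not reported here; other genes, and single cells, were named after their values were seen. Replicate numbers are shared by 2 mice per group, but nothing in the labels pairs them, so no pairing was used. The correlations of same-numbered mice in proximal cells were -0.136 and 0.0235. They were computed on deviations from group means, which mirror each other in the 2 saline mice, so they cannot decide on a pairing. Alternatives were DESeq2 1.42.0, RLE scaling, no filter, other gate minimums and cell filters, leaving out mice and a replicate block.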

Additional observations from a re-analysis of the deposited data

Results flagged for a closer look

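A member was flagged where all FMT mice were above both saline mice in cells that entered no gate. It was also flagged where it was higher in FMT without overlap in 1 gate and lower in another. These rules picked out 4 places in values that the edgeR fits do not cover. Members lay apart elsewhere too, such as Cd44, lower in FMT in T cells, and Krt8, higher in FMT in intercalated cells. Parts of the 4 flagged results are already described above and are repeated here. Among the cells that entered no gate, Vcam1 stood at 2.18 and 0 CPM in saline and at 2.41, 8.52 and 16.7 CPM in FMT, so the lowest FMT mouse was above both saline mice, as for 11.8% of the genes with at least 10 UMIs there. Most of these UMIs came from few cells, with 12 of the 14 in FMT 2 in 1 cell. Clu in the same cells was 13.8 and 21.4 CPM in saline and 33.8, 36.5 and 26.2 CPM in FMT. Cd44 there was lower in FMT without overlap, at 215 and 115 CPM in saline and 87.2, 102 and 96.4 CPM in FMT. Havcr1 was also lower without overlap, from 3 and 2 UMIs in saline and 3, 1 and 0 in FMT. The share of genes lower without overlap in these cells was not computed. These cells made up 17.9% and 10.9% of cells in saline and 9.58%, 8.89% and 8.31% in FMT.

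Vcam1 was higher in FMT in phagocytes (0 and 5.31 CPM against 20.7, 9.23 and 33.1, a difference of 18.4 CPM) and lower in FMT in neutrophils (11.1 and 11.8 CPM against 0, 0 and 2.20). Groups that do not overlap in these directions were found for 12.0% of genes with at least 10 UMIs in phagocytes and for 14.7% of the genes tested in neutrophils, where Vcam1 was too low to be tested. The UMIs behind the Vcam1 values were 0, 1, 7, 2 and 4, and 7, 4, 0, 0 and 1. Krt18 was higher in FMT in intercalated cells, by 92.6 CPM, and lower in FMT in T cells (2.32 and 2.82 CPM against 0.281, 1.05 and 1.30), beside 11.2% and 13.4% of genes. Whether these effects differ between the gates was not tested.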

How the results depend on the processing

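Of 58 alternative counts of called members, 52 were unchanged. The replicate block, a fit paired by replicate number, called 1 member in proximal cells (Lcn2, log2 fold change -3.94, edgeR adjusted p = 0.0190) and no other. FMT 3 is the only mouse numbered 3, so it had a block of its own and did not enter the treatment estimate. The Lcn2 value was also -3.94 in the fit without FMT 3, the FMT mouse that overlapped with saline. The block raised the genes called from 8 to 27 in proximal cells and from 18 to 73 in neutrophils. It could not be fitted in the thick limb and urothelium gates. Without the low count filter 1 member was called in distal cells (Clu, 0.76) and 1 in neutrophils (Spp1, 1.69). Leaving out mice gave 0 to 1 called members in distal cells. In urothelium 0 were called with DESeq2 (Spp1, 3.59) and 0 with at least 5 cells per mouse. The expected Lcn2 sum was 83.6 with S100a9. DESeq2 called 71 genes in proximal and 7 in distal cells in place of 8 and 16; in the thick limb gate it called 0, as did RLE scaling, in place of 11.

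Of 305 alternative fold changes of 27 genes and gates, 20 changed sign. Leaving out mice moved proximal Spp1 over -0.0886 to 0.27, Krt8 over -0.11 to 0.78 and Krt18 over -0.49 to 0.16; distal Sox9 over -0.32 to 0.31, Spp1 over -0.25 to 0.59 and Krt8 over -0.0788 to 0.73; and neutrophil Cd44 over -0.48 to 0.20. Distal Sox9 was 0.11 in cells without S100a8 and S100a9. With at least 5 cells per mouse, thick limb Spp1 and Clu were -1.58 and -1.10, and urothelial Krt20, Krt8, Krt18 and Cd44 were -0.0654, -0.38, -0.32 and -0.0444; urothelial Cd44 was -0.00873 with DESeq2 and -0.000463 with RLE scaling. The causes were not tested. Of 150 alternative differences in share, 34 moved by more than the spread between mice, 17 of them when cells were not thinned. Leave-one-out fits in the thick limb and urothelium gates left 1 mouse per group or no saline mouse and were not run.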

Other observations

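Some cells that entered no gate carried several members at once. In 3 of them, 1 in FMT 2 and 2 in FMT 3, Vcam1 had 12, 7 and 7 UMIs together with 12, 20 and 14 UMIs of Spp1 and 5, 2 and 3 of Clu. These cells had 0 UMIs of Slc34a1, Miox, Pecam1, Csf1r, Havcr1 and Lcn2. The cell in FMT 2 also had 37 UMIs of the chemokine Cxcl10, and the cells in FMT 3 had 34 and 14 UMIs of Ccl2, a chemokine for monocytes. A cell of Saline 1 with 13500 UMIs had 69 UMIs of Lcn2, 17 of Krt18, 11 of Krt19 and 1 of S100a8. These cells were picked for their high counts.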
